A study of Homo sapiens with 12 samples.

Results

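The 6 libraries described here compare SKOV-3 cells that are resistant to cisplatin and carry a double knockout of KDM5A and KDM5B (Resistant dKO, 3 libraries) with resistant SKOV-3 cells of wild-type genotype (Resistant, 3 libraries). They are 6 of the 12 libraries of the series, and the groups were chosen by their labels alone. The other 6 are parental SKOV-3 cells with the double knockout (Parental dKO, 3 libraries) and parental SKOV-3 cells of wild-type genotype (Parental, 3 libraries), neither of them resistant. They entered the fit for their spread and show the level of each gene in cells that were not resistant. SKOV-3 is an established human cell line from an ovarian adenocarcinoma, and cisplatin is a platinum drug that crosslinks DNA. How the alleles were made, whether a knockout line is 1 clone or a pool, and whether replicate libraries are separate cultures is not in the labels. The p-values therefore measure the spread between these libraries only, which may be technical. The series title links KDM5 proteins to cisplatin resistance, and the comparison asks which transcripts differ where both genes were targeted in resistant cells.

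KDM5A and KDM5B are enzymes that remove methyl groups from lysine 4 of histone H3, a mark found at the start sites of active genes. They are known mostly as repressors, and KDM5A was first described as a binding partner of the retinoblastoma protein. In tumour cell lines KDM5A has been linked to a slow-cycling, drug-tolerant state. KDM5C is an X-linked paralog with the same activity.

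Totals ran from 15659352 to 18436622 counts in the 6 resistant libraries. ERBB2, the receptor gene that SKOV-3 is known to amplify, had 811 to 1016 CPM (read counts scaled to library size) in Resistant dKO libraries and 690 to 1538 CPM in Resistant libraries, and all 7 epithelial and ovarian marker genes examined were at 1 CPM or more in both groups. The first principal component of these 6 libraries, with 48.2% of the variance, did not separate the groups. Resistant library 1 and Resistant dKO library 3 stood at its ends. The second component, with 29.3%, separated them. Resistant library 1 had 2.45% of its counts in ribosomal protein genes, against 4.10% to 6.05% in Resistant dKO libraries and 4.01% and 4.97% in the other Resistant libraries.

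Genes present in parental cells and almost without reads in a resistant group were found for Resistant and not for Resistant dKO libraries. Of the genes with at least 5 CPM in every parental library, 20 had at most 3 reads over the 3 Resistant libraries together. Each of these 20 had reads in every Resistant dKO library, at a median of 2.53%, 2.03% and 2.97% of its mean in Parental dKO libraries. In the Resistant libraries 15, 16 and 13 of the 20 had no read. The rule chose these genes by their few Resistant reads, so their lower level in Resistant libraries follows from the choice. In the other direction, 0 genes with that parental level had 3 or fewer reads over the Resistant dKO libraries. Among the 20 genes the share of the Parental dKO level ran from 0.176% to 14.1% in Resistant dKO library 1, from 0.35% to 9.63% in library 2 and from 0.439% to 22.7% in library 3. Of the 20, 7 are among the genes called below. The part of this pattern in the results was not tested.

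KDM5A (ENSG00000073614, GRCh38 chromosome 12, 280129 to 389454) had 17.6, 14.8 and 12.0 CPM in Resistant dKO libraries, against 39.9, 39.0 and 33.4 CPM in Resistant libraries. The groups did not overlap, and the knockout libraries held 39.6% of the control mean. The log2 fold change was -1.34 ± 0.25 (SE) with an adjusted p of 0.0524 in edgeR's quasi-likelihood test, just short of the threshold of 0.05. A two-sided exact permutation test gave p = 0.1, the smallest that 3 against 3 libraries allow. KDM5B (ENSG00000117139, chromosome 1, 202724495 to 202809470) had 84.8, 56.9 and 28.4 CPM in Resistant dKO libraries, against 111, 78.8 and 39.5 CPM in Resistant libraries. These ranges overlapped, and without regard to replicate number the difference was within the spread between libraries (log2 fold change -0.43 ± 0.49, adjusted p 0.908, exact permutation p = 0.5). Each Resistant dKO library was below the Resistant library of the same number. In edgeR with the replicate number as a block on the 6 resistant libraries alone, KDM5B did not pass either (adjusted p 0.389). With Resistant library 1 and Resistant dKO library 3 both left out, a choice made after seeing the data, the KDM5B log2 fold change was 0.25. KDM5C (ENSG00000126012, chromosome X, 53191321 to 53225422) averaged 198 ± 11.3 CPM in Resistant dKO libraries and 177 ± 29 CPM in Resistant libraries (SD, n = 3 each, exact permutation p = 0.4). In the parental background KDM5A averaged 19.7 ± 3.6 CPM in Parental dKO libraries and 37.3 ± 5.6 CPM in Parental libraries (SD, n = 3 each). KDM5B averaged 53.8 ± 26.9 CPM in Parental dKO libraries and 57.9 ± 19.3 CPM in Parental libraries. Transcripts of an edited gene can persist, and protein was not measured here.

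**Figure D1:**
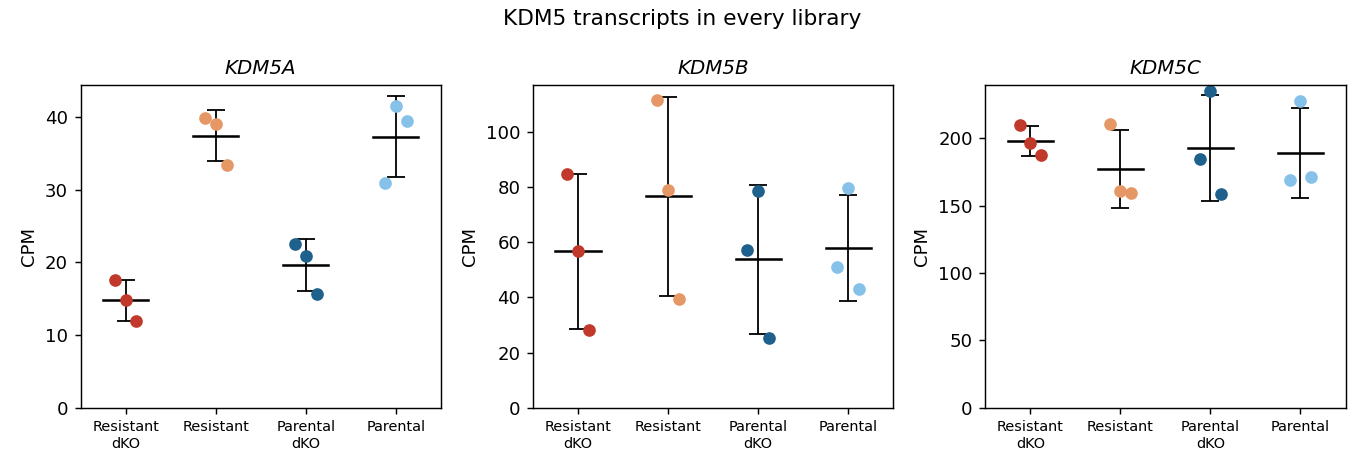
Levels of the targeted genes KDM5A and KDM5B and of the paralog KDM5C in CPM (y axis) in each library (points) of the 4 groups, with the mean (line) and SD (bar) over 3 libraries. KDM5A lies between 12.0 and 17.6 CPM in Resistant dKO libraries and between 33.4 and 39.9 CPM in Resistant libraries, while the KDM5B and KDM5C ranges overlap.

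Across the 17947 genes tested, 38 were higher in Resistant dKO cells and 0 were lower at an edgeR adjusted p under 0.05. The 38 genes are 0.212% of those tested, and the lower side is 0%. At an unadjusted p under 0.05 there were 794 genes on the higher side (4.42%) and 632 on the lower side (3.52%). All 3 Resistant dKO libraries lay above all 3 Resistant libraries for 1439 genes (8.02%) and below them for 1286 genes (7.17%). The median log2 fold change over all genes tested was 0.044. DESeq2 called all 38 genes among 215 higher ones, and called 34 lower ones. Of the 38 genes 22 were called by limma-voom and 19 in edgeR on the 6 resistant libraries alone. The number of higher genes fell with each resistant library left out. It was 8, 9 and 17 without Resistant dKO library 1, 2 and 3, and 7, 5 and 4 without Resistant library 1, 2 and 3. The keratin gene KRT81, the protease inhibitor gene CST6, the calbindin gene CALB1 and the noncoding RNA LINC02582 were called in each of these 6 fits. The same 4 genes were called with Resistant library 1 and Resistant dKO library 3 both left out, while 23 of the 38 were called in none of the 6 fits. Of the 38 genes 26 encode proteins.

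**Figure D2:**
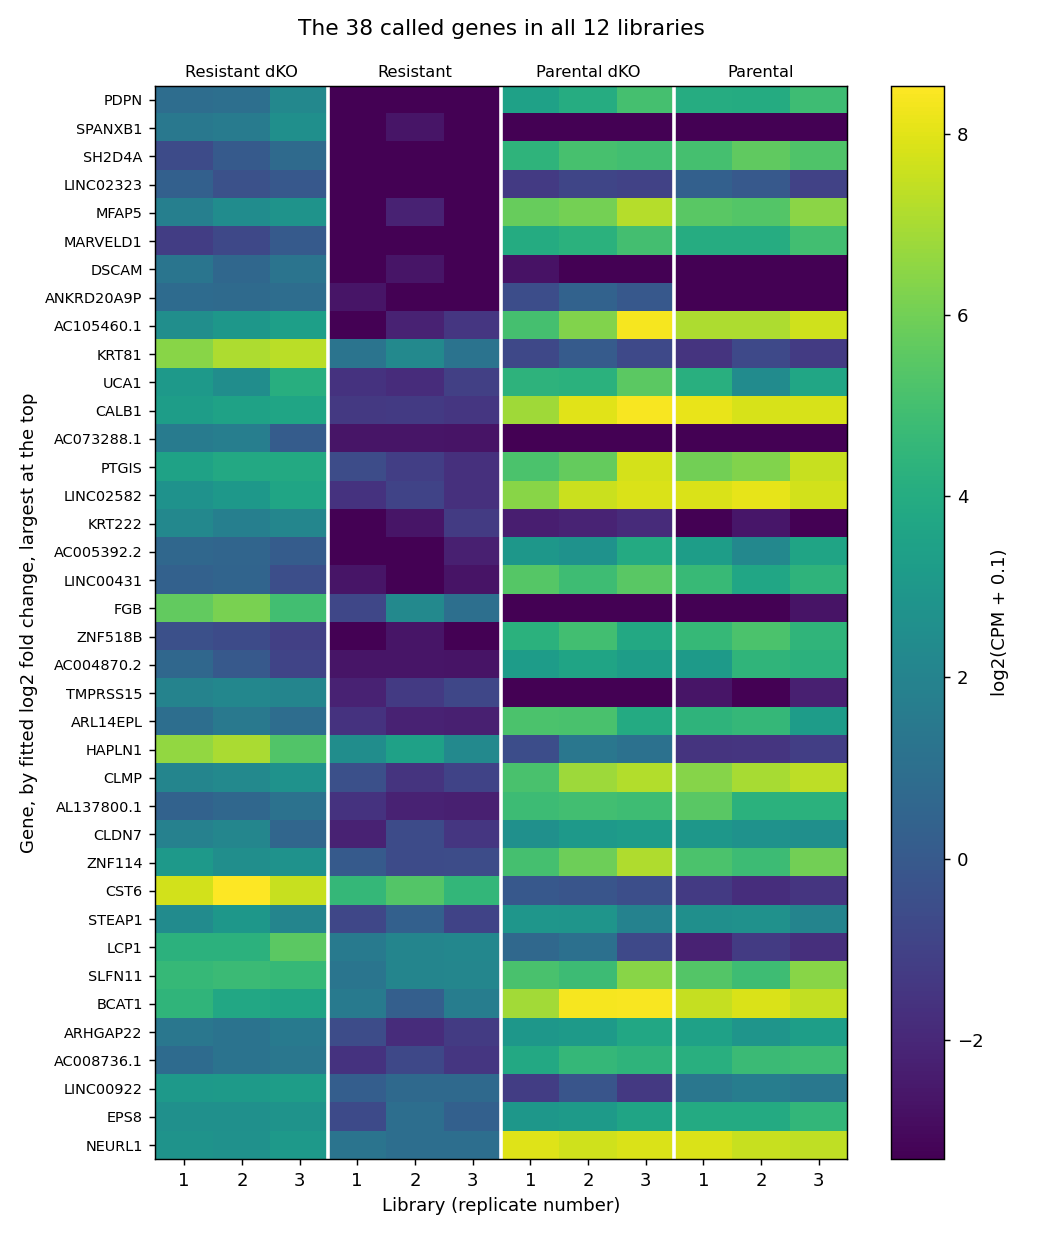
The 38 genes (rows, by fitted log2 fold change with the largest at the top) in all 12 libraries (columns, by group and replicate number), with log2(CPM + 0.1) in colour. KRT81, CST6, FGB and HAPLN1 are brightest in Resistant dKO libraries, while CALB1 and NEURL1 are among 23 genes whose Resistant dKO libraries all lie below the 6 parental libraries.

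For 12 of the 38 genes every Resistant dKO library lay above all 6 parental libraries. KRT81 (ENSG00000205426, chromosome 12, 52285913 to 52291534), a type II keratin of hair, had 86.4, 136 and 157 CPM in Resistant dKO libraries, against 2.28, 4.63 and 2.21 CPM in Resistant libraries. Every knockout library was far above every control (log2 fold change 5.38 ± 0.42, adjusted p 0.000194), and the highest parental library had 0.968 CPM. KRT81 has a near-identical neighbour, KRT86, and the deposited counts may split their reads. CST6 (ENSG00000175315, chromosome 11, 66011841 to 66013505), cystatin E/M, a secreted inhibitor of cysteine proteases, had 213, 372 and 187 CPM in Resistant dKO libraries, against 23.5, 41.2 and 22.7 CPM in Resistant libraries. The lowest knockout library stood above the highest control by a wide margin (3.14 ± 0.33, adjusted p 0.0016), and CST6 averaged 0.753 CPM in Parental dKO libraries and 0.25 CPM in Parental libraries.

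HAPLN1 (chromosome 5, 83637805 to 83721613), which links hyaluronan to proteoglycans in the extracellular matrix, had 97.0, 131 and 39.4 CPM in Resistant dKO libraries, against 5.6, 10.8 and 4.68 CPM in Resistant libraries (3.67 ± 0.55, adjusted p 0.0218). FGB (chromosome 4, 154562956 to 154571086), the beta chain of fibrinogen, had 51.1, 71.0 and 30.8 CPM in Resistant dKO libraries, against 0.467, 4.69 and 1.89 CPM in Resistant libraries (4.44 ± 0.71, adjusted p 0.0362). LCP1 (chromosome 13, 46125920 to 46211871), an actin-bundling protein best known from leukocytes, had 19.6, 19.3 and 46.3 CPM in Resistant dKO libraries, against 2.86, 4.08 and 4.36 CPM in Resistant libraries (2.91 ± 0.51, adjusted p 0.0367). The groups did not overlap for any of these 3 genes. The summed level of 7 leukocyte markers was 14.5 to 21.7 CPM in Resistant dKO libraries and 11.0 to 15.1 CPM in Resistant libraries, nearly all of it CD68, with 13.5, 20.7 and 14.0 CPM in Resistant dKO libraries and 11.3, 10.2 and 14.4 CPM in Resistant libraries. The other 6 markers were each below 1 CPM in every library of both groups, and among them CD14 had 0.544, 0.388 and 0.494 CPM in Resistant dKO libraries and 0.175, 0.305 and 0.21 CPM in Resistant libraries. PTPRC was at most 0.185 CPM in Resistant dKO libraries and at most 0.105 CPM in Resistant libraries, and CD2 had no reads in either. The part of other cells in the LCP1 value was not tested.

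SPANXB1, a sperm protein gene of a family of near-identical copies on the X chromosome, had 2.57, 2.94 and 5.93 CPM in Resistant dKO libraries and 1 read over the Resistant libraries, a ratio of 194 with a 95% exact counting interval of 34.4 to 7700. DSCAM, an adhesion molecule of the immunoglobulin family known from neural wiring, had 2.33, 1.44 and 2.29 CPM in Resistant dKO libraries and 1 read over the Resistant libraries (ratio 106, interval 18.7 to 4230). Both passed edgeR's test with an adjusted p of 0.03, and both were at or near 0 in all parental libraries. The filter on low counts kept both only through their Resistant dKO libraries, so that a call could only be on the higher side. Such intervals cover counting error only. KRT222, a keratin-related gene, had 4.55, 3.38 and 4.20 CPM in Resistant dKO libraries, against 0, 0.061 and 0.315 CPM in Resistant libraries (4.88 ± 0.80, adjusted p 0.0306). TMPRSS15, which encodes enteropeptidase of the gut lining, had 3.91, 4.43 and 4.08 CPM in Resistant dKO libraries, against 0.117, 0.305 and 0.473 CPM in Resistant libraries (3.75 ± 0.63, adjusted p 0.048). Neither gene overlapped between the groups, and the filter kept KRT222 and TMPRSS15, too, only through their Resistant dKO libraries. The noncoding RNA LINC00922 had 8.12, 8.64 and 9.64 CPM in Resistant dKO libraries, against 1.05, 1.58 and 1.58 CPM in Resistant libraries (2.64 ± 0.42, adjusted p 0.025). The pseudogene ANKRD20A9P (ratio 88.8, interval 15.6 to 3550), which has close copies, and the noncoding AC073288.1 (ratio 43.4, interval 14.6 to 213) complete these 12 genes. AC073288.1 likewise passed the filter only through its Resistant dKO libraries.

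**Figure D3:**
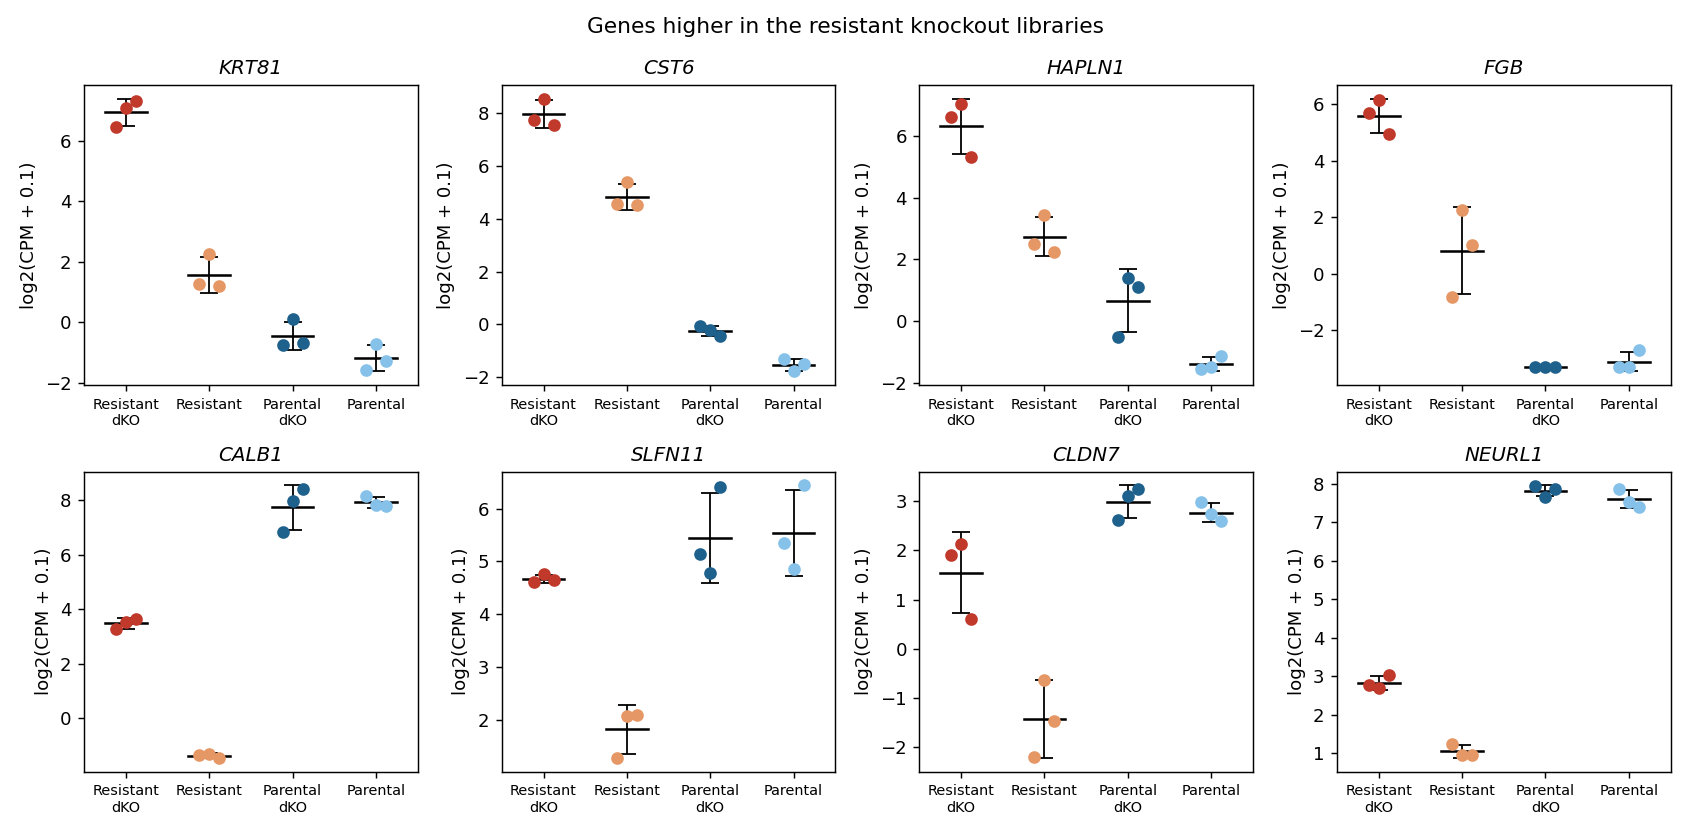
Level of 8 called genes as log2(CPM + 0.1) (y axis) in each library (points) of the 4 groups, with the mean (line) and SD (bar) over 3 libraries. KRT81, CST6, HAPLN1 and FGB (top row) are highest in Resistant dKO libraries, while CALB1, SLFN11, CLDN7 and NEURL1 (bottom row) are lowest in Resistant libraries and lie below the parental range in Resistant dKO libraries.

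For 23 of the 38 genes every Resistant dKO library lay above the Resistant libraries and below all 6 parental libraries. Their Resistant dKO mean ran from 2.46% of the Parental dKO mean for ZNF518B to 66.6% for EPS8, with a median of 6.05%. CALB1 (ENSG00000104327, chromosome 8, 90058608 to 90095475), which encodes the calcium buffer calbindin, had 9.5, 11.5 and 12.5 CPM in Resistant dKO libraries, against 0.292, 0.305 and 0.263 CPM in Resistant libraries. The groups were far apart (5.25 ± 0.44, adjusted p 0.000223), and CALB1 averaged 236 CPM in Parental dKO libraries and 245 CPM in Parental libraries. LINC02582 (chromosome 18, 73324941 to 73349878), a long noncoding RNA, had 6.43, 7.92 and 12.4 CPM in Resistant dKO libraries, against 0.233, 0.426 and 0.21 CPM in Resistant libraries (4.92 ± 0.48, adjusted p 0.000802). It held 5.25% of its Parental dKO mean in Resistant dKO libraries, and CALB1 4.74%.

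SLFN11 (ENSG00000172716, chromosome 17, 35350305 to 35373701), a Schlafen family gene that is known to sensitise cells to drugs that damage DNA, had 24.4, 26.9 and 24.8 CPM in Resistant dKO libraries, against 2.33, 4.14 and 4.20 CPM in Resistant libraries. The 3 knockout libraries were close to each other and far above the controls (2.83 ± 0.50, adjusted p 0.0385). SLFN11 had 35.4, 27.5 and 84.9 CPM in Parental dKO libraries and 40.5, 28.7 and 86.6 CPM in Parental libraries, so that Resistant dKO libraries held 51.5% of the Parental dKO mean. The SLFN11 call was lost without any 1 of the 6 resistant libraries. EPS8, a substrate of the EGF receptor that acts on actin, averaged 6.32 ± 0.36 CPM in Resistant dKO libraries and 1.17 ± 0.65 CPM in Resistant libraries (SD, n = 3 each, 2.43 ± 0.42, adjusted p 0.0367). CLDN7, a claudin of tight junctions, had 3.66, 4.26 and 1.42 CPM in Resistant dKO libraries, against 0.117, 0.548 and 0.263 CPM in Resistant libraries (3.32 ± 0.56, adjusted p 0.0332), and held 39.1% of its Parental dKO mean. ARHGAP22, a GTPase-activating protein, held 24.9% (2.76 ± 0.46, adjusted p 0.0306).

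MFAP5, a glycoprotein of elastic microfibrils, had 3.37, 5.37 and 6.73 CPM in Resistant dKO libraries and 2 reads over the Resistant libraries (ratio 132, interval 36.3 to 1100, adjusted p 0.00526). It was called without 5 of the 6 resistant libraries, each left out in turn. PDPN, the membrane glycoprotein podoplanin, had 1.78, 1.94 and 4.57 CPM in Resistant dKO libraries and no reads in Resistant libraries, and was at least 46.7-fold higher against a floor of 3 reads over the group (adjusted p 0.0145). SH2D4A, an adaptor with an SH2 domain, had 0.544, 0.941 and 1.61 CPM in Resistant dKO libraries and no reads in Resistant libraries (at least 17.4-fold higher, adjusted p 0.0145). Both had clear levels in all parental libraries, with means of 20.1 CPM for PDPN and 28.6 CPM for SH2D4A in Parental dKO libraries.

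PTGIS, prostacyclin synthase, had 11.4, 14.0 and 14.8 CPM in Resistant dKO libraries, against 0.584, 0.366 and 0.21 CPM in Resistant libraries (5.10 ± 0.77, adjusted p 0.0218). CLMP, an adhesion molecule of epithelial junctions, had 4.06, 4.71 and 6.42 CPM in Resistant dKO libraries, against 0.642, 0.244 and 0.42 CPM in Resistant libraries (3.51 ± 0.56, adjusted p 0.028). ZNF114, a zinc finger gene, had 8.12, 5.76 and 6.42 CPM in Resistant dKO libraries, against 0.934, 0.548 and 0.578 CPM in Resistant libraries (3.29 ± 0.55, adjusted p 0.0315). The groups were separate for each of these genes, and their share of the Parental dKO mean was 13% for PTGIS, 5.22% for CLMP and 8.73% for ZNF114. ARL14EPL had 1.88, 2.66 and 1.79 CPM in Resistant dKO libraries, against 0.233, 0.122 and 0.105 CPM in Resistant libraries (3.73 ± 0.56, adjusted p 0.0218). BCAT1, which transaminates branched-chain amino acids, averaged 15.9 ± 5.2 CPM in Resistant dKO libraries and 2.33 ± 1.09 CPM in Resistant libraries (SD, n = 3 each, adjusted p 0.0332). NEURL1, a ubiquitin ligase of the neuralized family, had the smallest change of the 38, with 7.08 ± 0.94 CPM in Resistant dKO libraries and 1.98 ± 0.26 CPM in Resistant libraries (1.83 ± 0.24, adjusted p 0.0108), and held 3.12% of its Parental dKO mean. MARVELD1 (at least 9.98-fold higher, adjusted p 0.0463), the zinc finger gene ZNF518B (ratio 28, interval 4.64 to 1140, adjusted p 0.0497), the noncoding AC105460.1, AC005392.2, AC004870.2 and AC008736.1, the transcribed pseudogene LINC00431 and AL137800.1, which had no match in the annotation, complete these 23 genes. The adjusted p of the last 6 ran from 0.0153 to 0.0332.

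The remaining 3 called genes lay within the parental range in at least 1 library. STEAP1, a metalloreductase of the cell surface, had 5.25, 7.59 and 4.14 CPM in Resistant dKO libraries, against 0.467, 1.16 and 0.42 CPM in Resistant libraries (3.05 ± 0.51, adjusted p 0.0306), and its Resistant dKO mean was 92.3% of the Parental dKO mean. UCA1, a noncoding RNA first found in urothelial carcinoma, had 8.41, 5.48 and 17.2 CPM in Resistant dKO libraries, against 0.233, 0.183 and 0.368 CPM in Resistant libraries (5.26 ± 0.68, adjusted p 0.0101). The noncoding LINC02323 had 1.14, 0.665 and 0.865 CPM in Resistant dKO libraries and no reads in Resistant libraries (at least 15.8-fold higher, adjusted p 0.0244). In all 3 genes every knockout library was above every control.

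Promoters from RefSeq (GRCh38.p14), 250 bases before to 50 bases after a gene's start, matched 16 of the 38 called genes and 11910 of all genes tested. Since KDM5 enzymes act on a mark of promoters that are often rich in CpG dinucleotides, 3 stretches of 250 bases upstream of the start that differ in CpG content are shown, with each CG in capitals. They belong to ARHGAP22 (chr10:48656266-48656515, minus strand, 29 CG), ZNF518B (chr4:10457427-10457676, minus strand, 26 CG) and DSCAM (chr21:40847159-40847408, minus strand, 14 CG), whose RefSeq starts lie 0, 16 and 19 bases from the GENCODE ones, and are written 5′ to 3′ in the direction of transcription.
ARHGAP22: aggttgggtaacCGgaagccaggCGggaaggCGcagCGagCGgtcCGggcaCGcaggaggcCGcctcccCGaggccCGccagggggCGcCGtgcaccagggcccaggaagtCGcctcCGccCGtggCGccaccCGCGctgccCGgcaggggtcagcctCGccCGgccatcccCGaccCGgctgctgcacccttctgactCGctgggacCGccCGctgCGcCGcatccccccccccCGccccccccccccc
ZNF518B: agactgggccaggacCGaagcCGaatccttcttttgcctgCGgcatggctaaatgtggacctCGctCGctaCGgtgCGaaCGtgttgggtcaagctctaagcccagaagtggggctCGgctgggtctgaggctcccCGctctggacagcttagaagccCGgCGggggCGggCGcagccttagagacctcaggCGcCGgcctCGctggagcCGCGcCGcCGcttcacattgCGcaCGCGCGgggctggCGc
DSCAM: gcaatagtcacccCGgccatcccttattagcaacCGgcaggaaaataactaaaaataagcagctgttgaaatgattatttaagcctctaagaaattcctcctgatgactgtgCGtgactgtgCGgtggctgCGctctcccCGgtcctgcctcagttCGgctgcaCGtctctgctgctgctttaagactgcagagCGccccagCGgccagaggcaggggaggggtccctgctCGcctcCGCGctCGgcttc
The median GC content of the 300 bases was 58.0% in the called genes and 65.0% in all genes tested. The median CpG observed over expected ratio was 0.69 in the called genes and 0.83 in all. Of the 16 called promoters 2 (12.5%), those of FGB and TMPRSS15, had no CG, against 0.62% of all, and neither is shown above. The motif CCGCCC, on either strand, was in 8 of the 16 called promoters (50%) and in 68.5% of all, and TATAAA, on either strand, in 4 of the 16 (25%) and in 6.1% of all. The 4 are BCAT1, LCP1, PDPN and TMPRSS15, and the RefSeq starts of LCP1 and TMPRSS15 lie 29694 and 82094 bases from the GENCODE starts. For CLDN7, HAPLN1, MARVELD1, PDPN and NEURL1 this distance is 770, 758, 557, 292 and 274 bases. The upstream stretches of BCAT1, FGB, HAPLN1, LCP1, MARVELD1, PDPN, SLFN11, SPANXB1 and STEAP1 overlap exons of their own genes. The motifs do not overlap each other. These are descriptions of 16 promoters with no test, and the other 22 called genes were not matched.

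On the lower side 0 of 17947 genes passed, and the 12 protein-coding genes with the smallest p among those with at least 5 CPM in Resistant libraries and no overlap are given as values. KDM5A was first among them. CAMK2B, a calcium/calmodulin-dependent kinase, had 8.91, 6.04 and 7.04 CPM in Resistant dKO libraries, against 17.9, 16.02 and 20.8 CPM in Resistant libraries (-1.31 ± 0.25, adjusted p 0.0569). SYNPO2, an actin-associated protein, had 8.96, 7.20 and 5.25 CPM in Resistant dKO libraries, against 26.9, 29.4 and 19.97 CPM in Resistant libraries (-1.83 ± 0.36, adjusted p 0.0662). SEC22C, a protein of vesicle traffic from the endoplasmic reticulum, had 49.9, 57.6 and 62.0 CPM in Resistant dKO libraries, against 127, 105 and 120 CPM in Resistant libraries (-1.05 ± 0.21, adjusted p 0.0712). All of these libraries were apart by group, yet none of the differences passed over all genes. The phosphodiesterase gene PDE3B had a log2 fold change of -2.32 ± 0.49, the adhesion gene CADM1 -1.82 ± 0.41, the guidance cue gene NTN1 -1.52 ± 0.34 and LBH -1.67 ± 0.38. TMEM158 had -1.62 ± 0.37, CDCP1 -1.21 ± 0.28, STIMATE -1.23 ± 0.29 and DNAJC3 -1.29 ± 0.28, and adjusted p for these 8 genes ran from 0.0945 to 0.155.

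DESeq2 called 34 of 17925 genes lower (0.19%). By its largest fold changes among genes with at least 5 CPM in Resistant libraries these were NCAM1, VSTM4, PDE3B, SEMA3G, ABCA3, CSPG5, SYNPO2, CADM1, LBH and GALNT17. NCAM1, a neural cell adhesion molecule, had 23.5, 9.91 and 4.45 CPM in Resistant dKO libraries, against 210, 38 and 23.1 CPM in Resistant libraries (DESeq2 log2 fold change -2.85, adjusted p 0.0237). Resistant library 1 was far above the rest, and the groups overlapped. ABCA3, a lipid transporter, had 91.0, 54.8 and 18.4 CPM in Resistant dKO libraries, against 478, 128 and 92.5 CPM in Resistant libraries (DESeq2 -2.10, adjusted p 0.0371). The neural proteoglycan gene CSPG5 had 20.2, 22.2 and 21.4 CPM in Resistant dKO libraries, against 151, 50.6 and 52.7 CPM in Resistant libraries (DESeq2 -2.00, adjusted p 0.042). In both, Resistant library 1 was again the highest. In edgeR the 10 genes had adjusted p from 0.0662 to 0.298.

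Gene lists are given by counts and by their median log2 fold change, beside 0.044 for all genes tested, with no test of the list. The medians of 18 of the 41 lists kept 1 sign in all 23 settings, and those of the other 23 reached 0 or changed sign in at least 1. Without Resistant library 1 the median was 1.14 for keratins, -0.15 for cisplatin transport, 0.02 for Notch and WNT and 0.17 for NRF2 targets, and without Resistant library 3 it was -0.09 for matrix glycoproteins. The list of endoplasmic reticulum chaperones and the unfolded protein response holds genes that fold secreted proteins and adjust that capacity. All 27 members had a log2 fold change below 0, against 45.9% of all genes tested, with a median of -0.88 and a range from -1.52 to -0.19. In 22 of the 27 (81.5%) the Resistant dKO libraries all lay below the Resistant libraries, against 7.17% of all genes, 19 had an unadjusted p under 0.05, against 3.52% of all genes on the lower side, and 0 passed over all genes (smallest adjusted p 0.11). The summed level of the list was 7915, 10150 and 6840 CPM in Resistant dKO libraries, against 16070, 15580 and 17300 CPM in Resistant libraries. The groups did not overlap, and the Resistant libraries stood above all 6 parental libraries, which ran from 4657 to 10150 CPM. Members of this list are known to be switched on together and are not independent of each other.

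DNAJC3, a co-chaperone that restrains the kinase PERK, had 35.6, 40.2 and 27.8 CPM in Resistant dKO libraries, against 96.4, 59.3 and 97.8 CPM in Resistant libraries. DNAJB11, a co-chaperone of BiP, had 107, 169 and 113 CPM in Resistant dKO libraries, against 237, 291 and 360 CPM in Resistant libraries (-1.19 ± 0.29, adjusted p 0.163). HYOU1, a large chaperone of the lumen, had 200, 208 and 251 CPM in Resistant dKO libraries, against 688, 374 and 597 CPM in Resistant libraries (-1.33 ± 0.36, adjusted p 0.235). SEL1L, a subunit of the complex that exports misfolded proteins for degradation, had 64.5, 61.8 and 29.2 CPM in Resistant dKO libraries, against 207, 94.4 and 105 CPM in Resistant libraries (-1.38 ± 0.38, adjusted p 0.255). Every library of these genes was in order of its group. The list kept all 27 members below 0 without Resistant library 1 (median -0.71), without Resistant dKO library 3 (-0.90) and without both (-0.64).

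**Figure D4:**
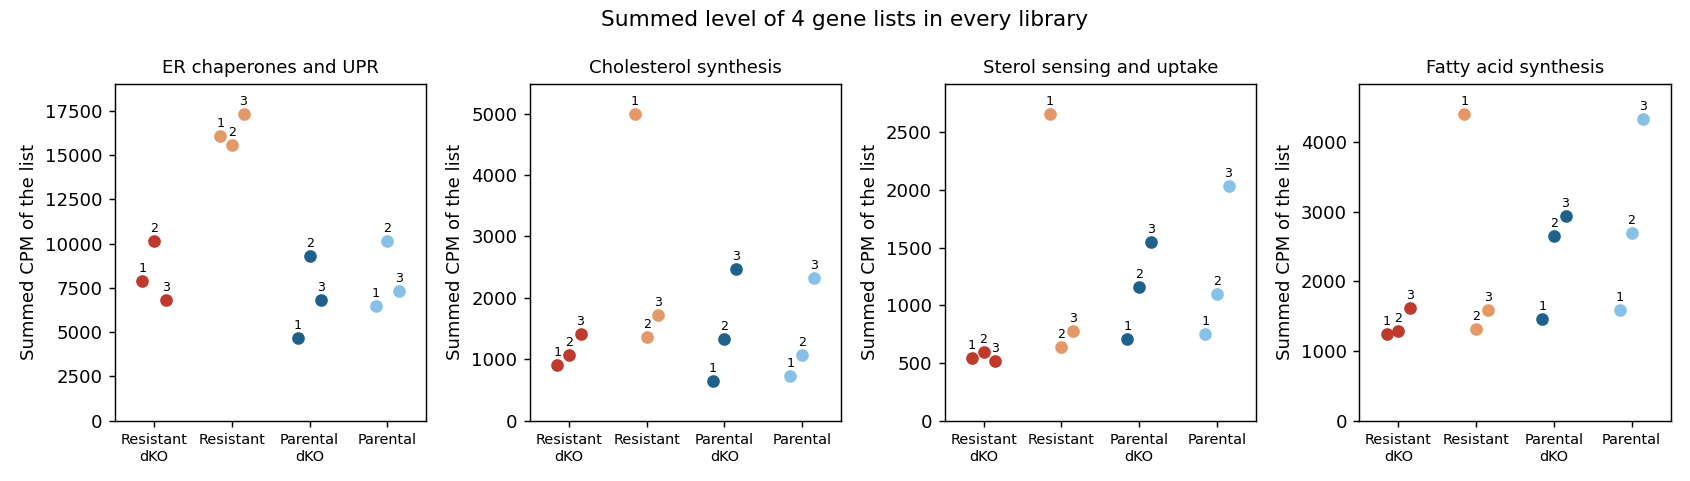
Summed CPM (y axis) of the members of 4 gene lists in each library (points, with the replicate number) of the 4 groups. The chaperone list (ER, endoplasmic reticulum; UPR, unfolded protein response) separates Resistant dKO libraries, at 6840 to 10150 CPM, from Resistant libraries, at 15580 to 17300 CPM, while in the 3 lipid lists Resistant library 1 stands apart from the other libraries of its group.

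The medians of the lipid lists were also below 0, and their size rested largely on 1 library. For cholesterol synthesis 18 of 20 members were below 0 (median -0.85), 8 of them with an unadjusted p under 0.05 (3.52% of all genes were lower at that level) and 0 past the test. The summed level was 903, 1072 and 1419 CPM in Resistant dKO libraries, against 4988, 1362 and 1721 CPM in Resistant libraries, with Resistant library 1 far above the others. Without that library the median was -0.25, with 17 of 20 below 0. MSMO1, a sterol oxidase, had 19.6, 24.6 and 24.0 CPM in Resistant dKO libraries, against 254, 28 and 45.0 CPM in Resistant libraries, and HSD17B7, DHCR7 and CYP51A1, enzymes of the same pathway, were likewise highest in Resistant library 1 (adjusted p from 0.354 to 0.531). For sterol sensing and uptake 12 of 13 tested members were below 0 (median -1.03, and -0.35 without Resistant library 1, with 10 below 0). SOAT1, which esterifies cholesterol, had 33.3, 47.6 and 35.8 CPM in Resistant dKO libraries, against 115, 59.9 and 63.8 CPM in Resistant libraries (-1.03 ± 0.27, adjusted p 0.227), and the master regulator genes SREBF2 (-1.58 ± 0.60) and SCAP (-0.85 ± 0.33) did not pass either. For fatty acid synthesis 13 of 16 were below 0 (median -0.45, and -0.11 without Resistant library 1), and the desaturase gene SCD had 68.5, 56.0 and 33.7 CPM in Resistant dKO libraries, against 1550, 67.4 and 78.8 CPM in Resistant libraries. The desaturase gene FADS1 had -1.13 ± 0.52.

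Among epithelial genes 1 of 13 tested keratins rose, KRT81, against 0.212% of all genes. The list median was 0.66 (0.55 with the keratins that had no reads in Resistant libraries at their bound). KRT19, a simple-epithelium keratin, had 13.6, 18.4 and 20.6 CPM in Resistant dKO libraries, against 1.23, 3.11 and 0.42 CPM in Resistant libraries (3.48 ± 0.72, adjusted p 0.0831). KRT86, the neighbour of KRT81, had 2.2 ± 0.64 and KRT17 4.37 ± 1.37. The summed level of 6 keratinocyte markers was 55.9 to 68.5 CPM in Resistant dKO libraries and 28.5 to 59.6 CPM in Resistant libraries. Nearly all of it was KRT10, with 57.4, 54.6 and 67.9 CPM in Resistant dKO libraries and 28.4, 59.3 and 48.3 CPM in Resistant libraries. It was the 1 marker of the 6 with a mean of 1 CPM or more, and KRT1 was without reads in both groups. The part of keratinocytes in the keratin values was not tested. Of 31 tested genes of epithelial junctions 3 rose, CLMP, CLDN7 and MARVELD1, against 0.212% of all genes, with a median of 0.27. None passed on the lower side, where 0% of all genes passed. The Resistant dKO libraries all lay above the Resistant libraries in 7 of the 31 (22.6%, against 8.02% of all genes). They all lay below them in 4 (12.9%, against 7.17%). OCLN, the tight junction protein occludin, had 35.3, 35.4 and 36.5 CPM in Resistant dKO libraries, against 149, 53.8 and 62.6 CPM in Resistant libraries (-1.31 ± 0.37, adjusted p 0.26). The list median ran from -0.03 without Resistant dKO library 1 to 1.14 with both end libraries left out. Of 14 tested mesenchymal genes 0 passed (median 0.16, range from -1.01 to 2.49). Of the 14, 9 were above 0, against 54.0% of all genes, and 5 below 0. The groups did not overlap in 2 on the higher side (14.3%, against 8.02%) and in 2 on the lower side (14.3%, against 7.17%). The 2 with an unadjusted edgeR p under 0.05 were both below 0, the cadherin CDH2 at -1.01 ± 0.33 and the repressor ZEB1 at -0.62 ± 0.23.

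Of 21 tested collagens 0 passed, with 7 whose Resistant dKO libraries all lay above the Resistant libraries (33.3%, against 8.02% of all genes) and a median of 0.27. That median was 0.82 without Resistant library 1, 0.99 with both end libraries left out and -0.02 without Resistant library 3. COL1A1, a chain of type I collagen, had 4082, 4372 and 2499 CPM in Resistant dKO libraries, against 939, 729 and 345 CPM in Resistant libraries (2.44 ± 0.89, adjusted p 0.471). COL3A1, of type III collagen, had 80.1, 37.5 and 9.88 CPM in Resistant dKO libraries, against 5.02, 1.58 and 0.21 CPM in Resistant libraries (4.23 ± 0.93, adjusted p 0.112), and COL1A2 had 3.10 ± 1.00 and COL6A3 1.44 ± 0.44. The groups were separate for these 4 genes. Of 26 tested matrix glycoprotein genes 2 rose, MFAP5 and HAPLN1, against 0.212% of all genes. POSTN, periostin, had 42.9, 88.8 and 32.7 CPM in Resistant dKO libraries, against 5.19, 16.2 and 6.20 CPM in Resistant libraries (2.58 ± 0.50, adjusted p 0.0662). LUM, lumican, had 3.35 ± 1.08. COL1A2, COL3A1 and LUM are also in the list of 8 fibroblast markers, whose summed level was 27.9 to 144 CPM in Resistant dKO libraries and 4.99 to 21.7 CPM in Resistant libraries, with 5 and 4 of the 8 at 1 CPM or more in these groups. Of the other 5 markers, PDGFRB had 2.52, 3.21 and 1.98 CPM in Resistant dKO libraries and 0.992, 0.853 and 0.788 CPM in Resistant libraries, FAP 0.841, 1.44 and 0.185 CPM in Resistant dKO libraries and 0.175, 0.426 and 0.053 CPM in Resistant libraries, and DCN 1.39, 0.332 and 0.062 CPM in Resistant dKO libraries and 0.058, 0.061 and 0.105 CPM in Resistant libraries. PDGFRA had 2.62, 2.94 and 1.24 CPM in Resistant dKO libraries and 7.3, 1.52 and 2.89 CPM in Resistant libraries. THY1 was at most 0.099 CPM in Resistant dKO libraries and at most 0.061 CPM in Resistant libraries, and no fibroblast marker was without reads in both groups. The part of other cells in the collagen values was not tested, and in bulk RNA fewer cells of a type and less RNA per cell cannot be told apart.

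The acute phase list had the highest median, 2.16 over 17 tested members. Of these 15 were above 0, against 54.0% of all genes, and 1, FGB, rose, against 0.212% of all genes. The Resistant dKO libraries all lay above the Resistant libraries in 4 of the 17 (23.5%, against 8.02% of all genes). They all lay below them in 1 (5.88%, against 7.17%). The summed level of the list overlapped between the groups. It was 749.9, 611.3 and 203.1 CPM in Resistant dKO libraries, against 726.7, 217.9 and 129.2 CPM in Resistant libraries. FGG, the gamma chain of fibrinogen, had 15.9, 13.5 and 1.30 CPM in Resistant dKO libraries, against 0.467, 0.487 and 0 CPM in Resistant libraries (5.00 ± 1.1, adjusted p 0.141). SERPING1, the inhibitor of complement C1, had 11.2, 9.86 and 2.10 CPM in Resistant dKO libraries, against 0.876, 0.67 and 0.21 CPM in Resistant libraries (3.72 ± 0.95, adjusted p 0.193), and SERPINA3 had 2.83 ± 0.93. Resistant dKO library 3 was the lowest of its group for each of these genes. The list median was 0.55 in the parental background, 2.64 without Resistant dKO library 3, 3.66 without Resistant library 1 and 1.29 without Resistant dKO library 1. In prostaglandin synthesis 1 of 14 tested genes rose, PTGIS, against 0.212% of all genes (median 0.70). The prostaglandin E synthase gene PTGES had 2.51 ± 0.65, and PLA2G4A, which had 3 reads over the Resistant libraries, a ratio of 14.5. Of 28 tested cytokine and NF-kB genes 0 passed (median 0.40, and 0.75 without Resistant library 1), and 9 lay above the controls in every knockout library (32.1%, against 8.02% of all genes). IL1A had 2.97, 2.94 and 2.53 CPM in Resistant dKO libraries, against 0.058, 0.244 and 0.053 CPM in Resistant libraries (4.53 ± 1.33, adjusted p 0.287), and at least 10.4 CPM in every parental library. TNFAIP2 (1.06 ± 0.42) and TNFAIP3 (1.53 ± 0.62) were next, and IL6 had 2 reads over the Resistant libraries.

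**Figure D5:**
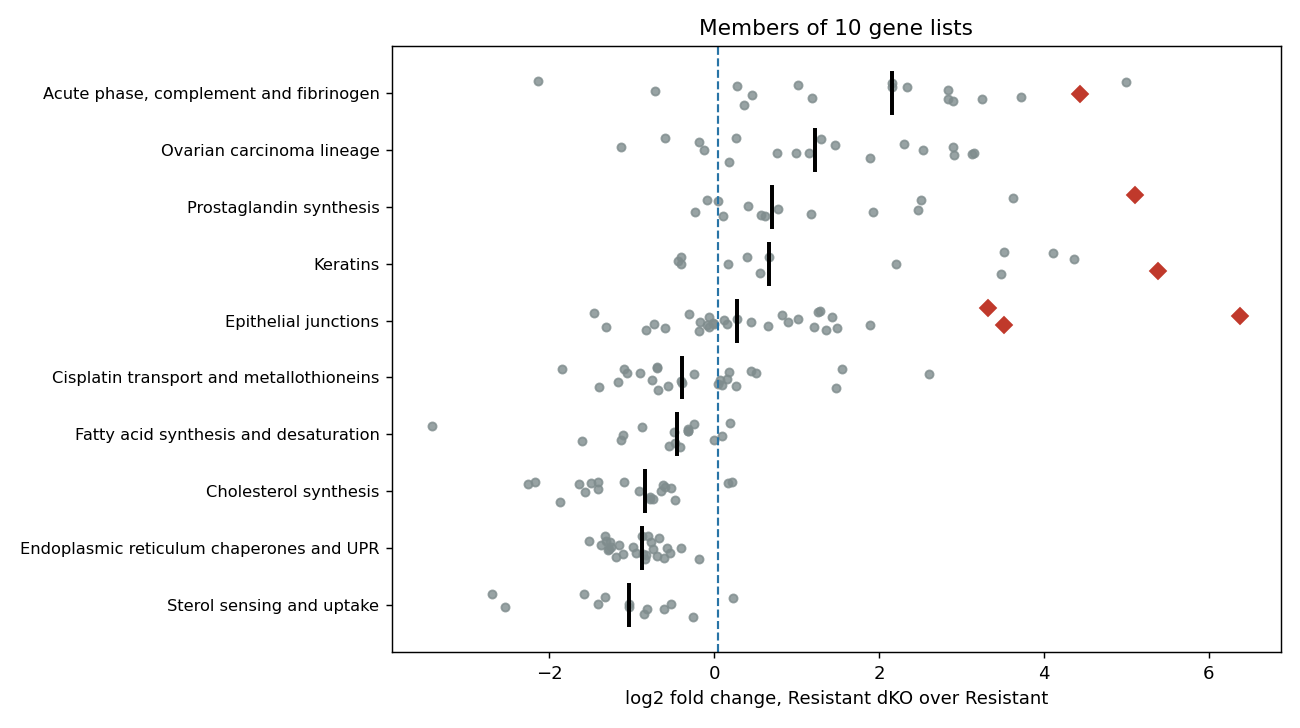
Log2 fold change of Resistant dKO over Resistant (x axis) of the tested members (points) of 10 gene lists (rows; UPR, unfolded protein response), with red diamonds for genes past the test, a bar at each list median and a dashed line at the median of all genes, 0.044. All 27 chaperone genes lie below 0, and the acute phase list has a median of 2.16.

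Genes of cisplatin transport and of the antioxidant response did not pass. Of 25 tested genes of cisplatin transport and metallothioneins 14 were below 0, against 45.9% of all genes (median -0.39). SLC31A1, the copper transporter CTR1 that carries cisplatin in, had 30.6, 37.7 and 36.4 CPM in Resistant dKO libraries, against 99.6, 47.2 and 48.5 CPM in Resistant libraries (-0.90 ± 0.29, adjusted p 0.383). LRRC8B, a subunit of volume-regulated anion channels, had 6.68, 9.19 and 7.04 CPM in Resistant dKO libraries, against 24.2, 14.2 and 13.2 CPM in Resistant libraries (-1.17 ± 0.32, adjusted p 0.255). SLC47A1, an organic cation exporter, had -1.85 ± 0.58, and the efflux pump gene ABCG2 2.61 ± 0.85. Of 32 tested NRF2 targets 25 were above 0, against 54.0% of all genes, and 0 passed (median 0.31). With both end libraries left out 15 were above 0 and 17 below 0 (median -0.03). AKR1C1, an aldo-keto reductase with near-identical relatives, had 5.05, 3.27 and 5.00 CPM in Resistant dKO libraries, against 0.35, 0.366 and 0.053 CPM in Resistant libraries (4.11 ± 0.87, adjusted p 0.0945). AKR1C2 had no reads in Resistant libraries and was at least 10.9-fold higher (adjusted p 0.162), AKR1C3 had 2.47 ± 0.82, and FTH1, the ferritin heavy chain, which has processed copies, 1.43 ± 0.40.

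DNA repair and cell death lists had 0 genes past the test and medians that moved with single libraries. Of 26 nucleotide excision repair genes 0 passed (median 0.16), and likewise 0 of 35 homologous recombination and Fanconi genes (0.05) and 0 of 24 genes of mismatch repair, translesion synthesis and end joining (-0.01). The homologous recombination median was -0.29 without Resistant library 1, -0.27 without Resistant dKO library 3, 0.34 without Resistant library 3 and -0.56 with both end libraries left out, where the excision repair median was -0.19. The smallest p in these lists belonged to the kinase gene ATR (-0.61 ± 0.21, adjusted p 0.46) and the end-joining gene XRCC4 (1.11 ± 0.41, adjusted p 0.481). Of 26 p53 targets and 27 BCL2 family genes 0 passed (medians -0.09 and 0.09). PMAIP1, which encodes the death protein NOXA, had 60.9, 45.1 and 50.4 CPM in Resistant dKO libraries, against 18.6, 19.7 and 24.8 CPM in Resistant libraries, with separate groups (1.31 ± 0.32, adjusted p 0.165). BCL2A1 had -2.17 ± 0.89.

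Lists of chromatin and proliferation genes had 0 members past the test. The medians were 0.16 for 7 H3K4 demethylases, -0.02 for 16 members of H3K4 methyltransferase complexes, -0.06 for 24 other histone lysine enzymes and 0.04 for 22 tested genes of RB and E2F control. DNA replication (32 genes, median 0.24) and mitosis (32 genes, median 0.23) differed more between libraries than between groups: the summed replication level was 1142, 1747 and 4028 CPM in Resistant dKO libraries, against 736.5, 2090 and 3024 CPM in Resistant libraries. With both end libraries left out these medians were -0.83 and -0.61. Cytosolic ribosomal protein genes had a median of 0.37 over 62 genes, with RPS20 at 0.92 ± 0.36, and -0.07 with both end libraries left out. Mitochondrially encoded genes had a median of -0.17, nuclear genes of oxidative phosphorylation 0.16, with UQCRB at 0.70 ± 0.28, cytosolic heat shock chaperones 0.27 and hypoxia and glycolysis genes 0.17. In the last list the glucose transporter gene SLC2A3 had 6.93, 10.8 and 4.51 CPM in Resistant dKO libraries, against 1.4, 0.853 and 0.473 CPM in Resistant libraries (3.02 ± 0.59, adjusted p 0.116), and ADM, adrenomedullin, had -1.68 ± 0.52. The histone list had a median of 0.23 over 17 tested genes.

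The other lists held 0 genes past the test as well. Ovarian carcinoma lineage genes had a median of 1.22 over 18 tested, with 14 above 0, against 54.0% of all genes, and 7 higher at an unadjusted p under 0.05, against 4.42% of all genes. The median was 0.66 without Resistant dKO library 1. The summed level overlapped between the groups, with 584, 399 and 322 CPM in Resistant dKO libraries, against 719, 329 and 268 CPM in Resistant libraries. MSLN, mesothelin, had 2.57, 4.76 and 3.71 CPM in Resistant dKO libraries, against 1.17, 0.366 and 0.368 CPM in Resistant libraries (2.53 ± 0.56, adjusted p 0.112), FOLR1, a folate receptor, had 2.91 ± 0.80, KLK7 3.13 ± 0.81 and SLPI 3.15 ± 1.01. Resistant dKO libraries held 15.6% of the Parental dKO mean for MSLN, 7.07% for FOLR1 and 6.4% for SLPI, while KLK7 had no parental reads. Of the 38 cancer-testis and germline genes 9 passed the filter on low counts, with a median of 0.79 over these 9. MAGEB2 had 6.24, 3.66 and 6.73 CPM in Resistant dKO libraries, against 0.409, 1.04 and 0.578 CPM in Resistant libraries (3.03 ± 0.60, adjusted p 0.0662), while MAGEA12 had -1.49 ± 0.43 and MAGEA3 -1.23 ± 0.45. SOHLH2 had 2 reads over the Resistant libraries. Interferon-stimulated genes had a median of -0.26 over 40 tested, with IFI6 at 47.0, 44.9 and 12.5 CPM in Resistant dKO libraries, against 71.9, 190 and 224 CPM in Resistant libraries (-2.22 ± 0.82, adjusted p 0.476), and DTX3L at -0.67 ± 0.31. In antigen presentation (19 tested, median 0.14, which was 0.66 without Resistant library 1 and -0.22 without Resistant dKO library 1) the immunoproteasome subunit gene PSMB8 had 126, 70.7 and 50.2 CPM in Resistant dKO libraries, against 41.9, 26.3 and 11.5 CPM in Resistant libraries (1.63 ± 0.42, adjusted p 0.2), and PSMB9 had 1.81 ± 0.51.

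Signalling lists had medians between -0.25 and 0.16. In TGF-beta, activin and BMP signalling (28 tested, median -0.17) the receptor gene TGFBR2 had -1.32 ± 0.44, TGFBR3 -1.52 ± 0.52, BMP2 -1.27 ± 0.44 and the activin antagonist gene FST 2.57 ± 0.75. In Notch and WNT signalling (33 tested, -0.25) the transcription factor gene LEF1 had 1.24, 0.997 and 1.17 CPM in Resistant dKO libraries, against 0.058, 0.122 and 0.21 CPM in Resistant libraries (3.04 ± 0.58, adjusted p 0.0566), WNT10A had 3.47 ± 0.89 and HES1 1.2 ± 0.40, and RNF43 had 3 reads over the Resistant libraries. Among 12 tested ERBB receptors and ligands (-0.02) EGFR had 69.2, 82.4 and 69.6 CPM in Resistant dKO libraries, against 278, 111 and 114 CPM in Resistant libraries (-1.18 ± 0.42, adjusted p 0.466). ERBB3 had -1.12 ± 0.51, and the ligand gene EREG had no reads in Resistant libraries (at least 6.76-fold higher, adjusted p 0.373). Among 25 immediate early genes (0.16) JUNB had 0.90 ± 0.29 and DUSP4 1.12 ± 0.52. In the ATF4 list (32 genes, -0.12) VLDLR had -1.73 ± 0.52 and PHGDH, of serine synthesis, 1.04 ± 0.44. Among 19 tested aldehyde dehydrogenases and stem-like markers (-0.07) LGR5 had 2.56 ± 0.73.

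In the parental background, whose libraries were not used to choose the 38 genes except through the shared spread, 0 of 17947 genes (0%) passed in edgeR for Parental dKO against Parental, with 539 at an unadjusted p under 0.05, 11 called by DESeq2 and 1 by limma-voom. Same-numbered parental libraries deviated together (correlations 0.658, 0.774 and 0.779), which this fit does not use. With the replicate number as a block, a choice made after seeing the data, the 6 parental libraries alone gave 553 higher and 653 lower genes of 15903 tested, against 0 of either without the block. In the main fit 20 of the 38 genes had a log2 fold change above 0 in the parental background, where 52.3% of all genes tested were above 0. Another 16 of the 38 were below 0, and SPANXB1 and AC073288.1 had no parental reads. CST6 had 0.852, 0.774 and 0.632 CPM in Parental dKO libraries, against 0.299, 0.192 and 0.259 CPM in Parental libraries, and HAPLN1 had 0.601, 2.52 and 2.07 CPM in Parental dKO libraries, against 0.239, 0.256 and 0.362 CPM in Parental libraries. LCP1 had 1.5, 2.00 and 0.517 CPM in Parental dKO libraries, against 0.12, 0.32 and 0.207 CPM in Parental libraries. These 3 genes were higher in every knockout library of both backgrounds, at far lower levels in parental cells. They are among 6 called genes higher in Parental dKO libraries at an unadjusted edgeR p under 0.05, with ANKRD20A9P, UCA1 and LINC00431. ANKRD20A9P had 0.601, 1.23 and 0.862 CPM in Parental dKO libraries and 0 CPM in each Parental library. UCA1 averaged 28.9 CPM in Parental dKO and 11.9 CPM in Parental libraries, and LINC00431 39.1 and 19.7 CPM. TMPRSS15, LINC00922 and EPS8 were lower at that p. The difference of the 2 knockout effects, tested in the same edgeR fit, passed for 5 genes (0.0279% of those tested): CALB1 (5.31 ± 0.55 on the log2 scale, adjusted p 0.00473), LINC02582 (5.41 ± 0.60, adjusted p 0.00494), LINC00922 (5.20 ± 0.60, adjusted p 0.00613), KRT81 (4.49 ± 0.65, adjusted p 0.0381) and SH2D4A (at least 4.69 against the floor of 3 reads, adjusted p 0.0381). LINC00922 had 0.351, 0.774 and 0.287 CPM in Parental dKO libraries, against 2.51, 3.20 and 2.59 CPM in Parental libraries, so its 2 effects had opposite signs. With Resistant library 1 and Resistant dKO library 3 both left out, 0 genes passed for the difference.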

How the data were processed

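RNA was sequenced from poly(A)-selected, strand-marked libraries, per the labels' protocols. The authors deposited raw read counts per gene. The submitters' processing notes name GRCh38, featureCounts 2.0.1, STAR 2.7.10a and Trim Galore 0.6.10. The sources used here do not give the annotation, the strand setting or the treatment of reads with several matches, so overlapping, antisense or near-identical genes may share reads. In 2 column names the resistant line was misspelled, and they were matched to Resistant libraries 2 and 3 by the rest of the name.

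The default filterByExpr rule of edgeR 4.0.16 (R 4.3.3) retained 17947 of 59498 identifiers. TMM factors set the effective library sizes, to which CPM refer. The 12 libraries were fitted together, each group having its own mean, and group differences went through edgeR's robust quasi-likelihood test, with p-values adjusted by Benjamini-Hochberg over all genes at 0.05. Each SE is the size of the log2 fold change over the square root of F, and 3 reads over a group are the floor for genes with 0 reads. No pair of libraries in a group was a duplicate, since their counts differed by more than sampling noise (smallest chi-square over its degrees of freedom 24.1). Names and coordinates came from GENCODE release 29 (GRCh38). The fit was tested on simulated data.

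The comparison, the 41 gene lists and the rules were chosen with earlier results of these data known. Named are KDM5A, KDM5B and KDM5C, every called gene (each library's value for the 20 protein-coding ones with the largest change and at least 1 CPM), 12 genes of the lower side, up to 4 members of each list by smallest p, the genes called for the difference, and 10 genes that DESeq2 called lower. List members were named only at an unadjusted p under 0.05, a limit added after seeing the data. Other settings tried were scaling by library size alone or by median-of-ratios factors, 2 other filters, DESeq2 1.42.0, limma-voom (limma 3.58.1), a replicate block, the 6 resistant libraries alone, leaving out each library, and, added after seeing the data, leaving out 2 resistant libraries together and the 6 parental libraries alone with a replicate block. Same-numbered parental libraries deviated together from their group means for every number. Same-numbered resistant libraries did so for numbers 1 and 3 (correlations 0.569 and 0.639) but not for number 2 (-0.186). The labels state no block, and the main fit does not use the numbers.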

Additional observations from a re-analysis of the deposited data

Results flagged for a closer look

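The knockout effect differed between the resistant and the parental background, by the interaction contrast of the edgeR fit, for 5 genes. The difference of log2 fold changes (Resistant dKO over Resistant, minus Parental dKO over Parental) was 5.31 for CALB1, 5.41 for LINC02582, 5.20 for LINC00922, 4.49 for KRT81 and at least 4.69 for SH2D4A. In Resistant dKO libraries CALB1 was at 4.74%, LINC02582 at 5.25% and SH2D4A at 3.6% of the Parental dKO mean, and KRT81 and LINC00922 were above that mean. SH2D4A is 1 of the 20 genes with a parental level of at least 5 CPM and at most 3 reads in Resistant libraries. The part of that pattern in these differences was not tested. Groups of 3 libraries are too small for a test of single outlying libraries.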

How the results depend on the processing

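The count of 38 higher and 0 lower genes depended on the test and the filter. It was 319 and 132 with a filter of 1 count only, 215 and 34 in DESeq2, 463 and 225 with the replicate block on the 6 resistant libraries alone, and 4 and 0 with Resistant library 1 and Resistant dKO library 3 both left out. The lower count was 1 with at least 1 CPM in 3 libraries, 1 in limma-voom and 2 with the replicate block (53 higher). Over the fits that left out 1 library the higher count ran from 4 to 49 and the lower count from 0 to 1. The count for the difference of effects, 5, was 11 with library size alone, 161 with a filter of 1 count only, 67 in DESeq2, 18 with the replicate block, 3 to 8 with 1 library left out (3 without Resistant dKO library 2 or 3, Resistant library 1 or 3, Parental dKO library 1 or Parental library 2 or 3, and 8 without Parental dKO library 3 or Parental library 1) and 0 with both end libraries left out. The KDM5A log2 fold change passed the test with a filter of 1 count only (-1.37), at least 1 CPM in 3 libraries (-1.36), DESeq2 (-1.34), the replicate block (-1.34, and -1.37 on the 6 resistant libraries) and, over the fits that left out 1 library (-1.49 to -1.21), without Parental dKO library 3. KDM5B turned to 0.25 with both end libraries left out. The cause of these shifts was not tested. Same-numbered resistant libraries deviated together for 2 numbers and not for the third (correlations 0.569, -0.186 and 0.639). Whether the numbers pair these libraries cannot be told from these values, and the labels state no block. KDM5B did not pass with the block either (adjusted p 0.705, and 0.389 on the 6 resistant libraries alone, where the counts without the block were 26 and 0). Same-numbered parental libraries did deviate together (0.658, 0.774 and 0.779), and the block on the 6 parental libraries gave 553 higher and 653 lower genes. The other named genes kept their sign under every alternative that gave a value, and list medians moved by more than the spread between replicates in 56 of their values and by less in 846. With 3 libraries a group and a common biological coefficient of variation of 0.391, changes of low genes are measured with few reads.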
